A study of Homo sapiens with 9 samples.

Results

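Solute carriers are membrane transport proteins that move amino acids, sugars, metals, vitamins, nucleotides and many other solutes across the membranes of the cell. Their symbols begin with SLC and a family number. The members described here are all transcripts of the deposited ribosome profiling tables whose symbol starts with SLC and a digit. They numbered 171 of 9221 symbols and came from 43 numbered families. All 171 were listed for PF8503, and 163 of them were listed for PF846. The symbol rule took in 5 genes whose products are not carriers, namely SLC2A4RG, SLC4A1AP, SLC7A6OS, SLC9A3R1 and SLC9A3R2, which left 166 carriers and accessory subunits.

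In ribosome profiling, the pieces of mRNA covered by ribosomes (footprints) are recovered after nuclease digestion and sequenced. The libraries came from Huh-7, a liver cancer line of human hepatocyte origin, exposed for 1 hr to 1.5 µM PF8503, to 1.5 µM PF846 or to the vehicle, 0.5% DMSO, with 3 libraries per condition. The labels give PF8503 as PF-06378503, and they spell the long name of PF846 as PF-067446846 in the sample titles. Each table holds the authors' mean for vehicle and the authors' mean for compound in normalized counts, and no value of a single library was used here. The p-value columns of the tables hold the authors' own comparisons and were left aside. From the means alone neither the depth of a library nor the spread between replicates is known, so the values below are given without a test. A difference of a given size may lie within the spread between libraries. The vehicle and compound libraries were also sequenced in different lanes, so that the effects of lane and of compound cannot be told apart. Of 16 hepatocyte-derived markers 16 were listed for PF8503, with a median of 6421 normalized counts in vehicle. Of 17 markers of other cell types 3 were listed for PF8503, namely LYZ, PECAM1 and SNAP25. Their median was 170, and the highest of them had 7769. These lists held 5.42% and 0.0765% of the summed vehicle means. Another marker of other cell types, ACTA2, was listed for PF846 alone, with a mean of 56.0.

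Most solute carriers cross the membrane many times and are inserted into the endoplasmic reticulum while the ribosome is still translating them. The SLC25 family differs from the rest. Most of its members lie in the inner mitochondrial membrane, and these are made on cytosolic ribosomes and imported afterwards. PF846 and PF8503 bind the human ribosome and slow the elongation of a limited set of nascent chains, which lowers the footprints 3' of the stall. Values are given throughout as the log2 of the compound mean over the vehicle mean, so a negative value means fewer footprints with compound. A member was counted as lower or higher when this value was at or past 0.3 on the log2 scale.

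With PF8503, 6 of the 171 members were at or under -0.3, or 3.51%, against 2.98% of all 9157 transcripts. Another 5 members were at or over 0.3, or 2.92%, against 2.12% of all transcripts. With PF846, 2 of 163 members were at or under -0.3, or 1.23%, against 1.12% of all 8839 transcripts. None was at or over 0.3, against 0.882% of all transcripts. These shares lay near those of all transcripts, and in numbers called the solute carriers did not stand out with either compound. Most members lay close to vehicle. Within 0.2 on the log2 scale were 147 members with PF8503 (86.0%, against 87.1% of all transcripts) and 152 members with PF846 (93.3%, against 93.1%).

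**Figure D1:**
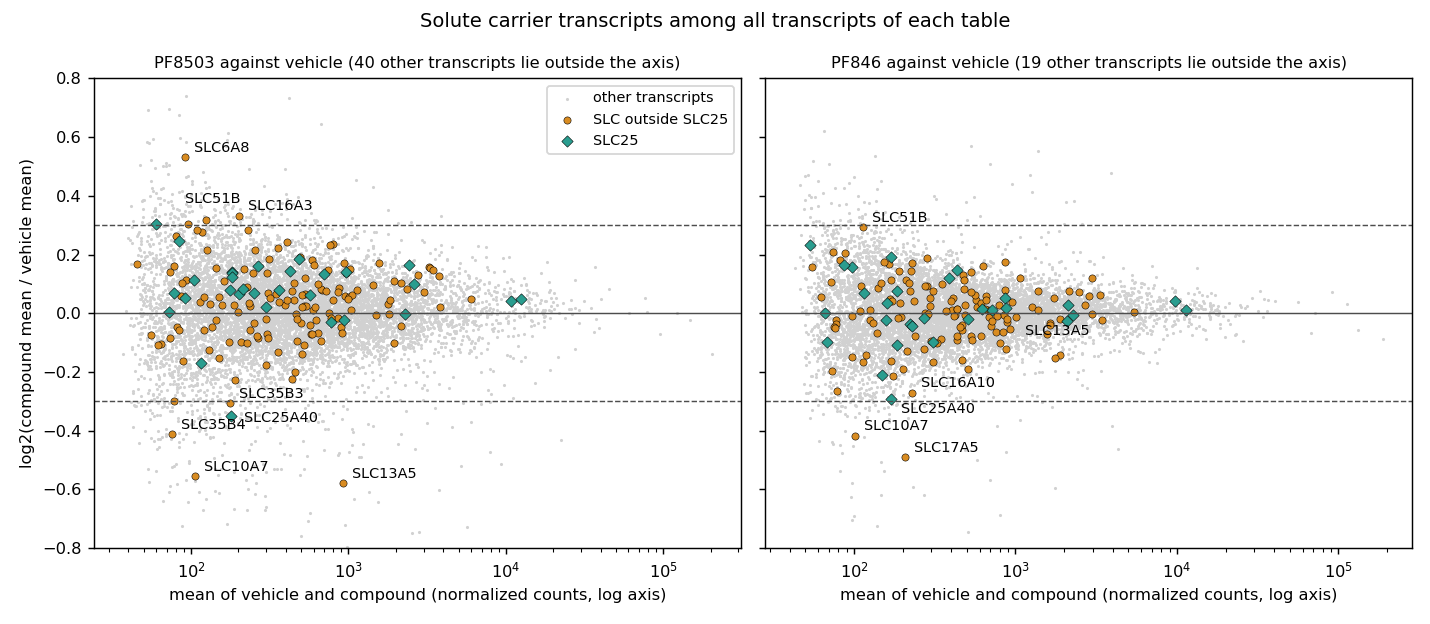
The log2 of compound over vehicle (vertical axis) is plotted against the mean of both in normalized counts (horizontal log axis) for PF8503 (left) and PF846 (right), with SLC25 members as diamonds, other members as circles, other transcripts in grey and dashed lines at 0.3 on either side. SLC13A5 lies at -0.58 with PF8503 and at -0.011 with PF846, and 40 (PF8503) and 19 (PF846) other transcripts lie past the axis limit of 0.8.

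The lowest value with PF8503 belonged to SLC13A5, the sodium-coupled citrate transporter of the hepatocyte plasma membrane. Its mean was 1107 normalized counts in vehicle and 742 with PF8503, a value of -0.58 that corresponds to 67.0% of vehicle. In the table for PF846 its mean was 1013 in vehicle and 1006 with compound, a value of -0.011. The vehicle means of the 2 tables differ by a constant factor of 1.09 where the same codons were counted, and SLC13A5 followed it. Among the 1742 transcripts with a mean within 1.5-fold of its own, 0.631% had a value as low with PF8503, and the central 95% of them ran from -0.24 to 0.21. Of the 1560 like-level transcripts in the table for PF846, 42.0% had a value as low as that of SLC13A5. Shares of like-level transcripts, here and below, are given for members picked for extreme values. Small shares can arise from that choice alone, and none of them is a test.

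SLC13A5 lies on the reverse strand at chr17:6684719-6713377 (GRCh38), and its canonical coding sequence of 568 codons spans 12 coding exons. Its codons up to the end of the first hydrophobic segment are shown because this carrier had the lowest value with one compound and a value near 0 with the other. Capitals mark the codons of the first window of 19 residues whose mean Kyte-Doolittle hydropathy was at least 1.6, here codons 13 to 31.
SLC13A5: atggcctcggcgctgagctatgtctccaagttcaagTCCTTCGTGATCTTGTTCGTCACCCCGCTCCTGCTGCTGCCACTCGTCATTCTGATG
The segment begins close to the start codon.

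SLC10A7, which belongs to the family of bile acid transporters by sequence and acts in cellular calcium handling, was low with both compounds. Its mean was 126 in vehicle and 85.6 with PF8503, a value of -0.55. In the table for PF846 it was 115 in vehicle and 86.2 with compound, a value of -0.42. It was the only member at or under -0.3 in both tables, whose vehicle libraries are the same. Among transcripts of like level, 1.32% were as low with PF8503 and 1.07% with PF846. The gene lies on the reverse strand at chr4:146253975-146522372, and its first hydrophobic segment by the same measure covers codons 74 to 92, later than in SLC13A5.
SLC10A7: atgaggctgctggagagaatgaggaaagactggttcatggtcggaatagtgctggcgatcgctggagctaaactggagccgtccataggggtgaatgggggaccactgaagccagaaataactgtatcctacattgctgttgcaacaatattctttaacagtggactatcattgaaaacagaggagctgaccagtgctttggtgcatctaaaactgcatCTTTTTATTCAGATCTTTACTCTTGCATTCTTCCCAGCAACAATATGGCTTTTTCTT

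SLC25A40, a mitochondrial importer of glutathione, had the lowest value of the SLC25 family with either compound. Its mean was 202 in vehicle and 159 with PF8503 (-0.35), and 185 in vehicle and 151 with PF846 (-0.29). Among like-level transcripts 2.48% and 1.74% were as low. SLC38A9, the lysosomal arginine sensor, lay close to it, at -0.23 with PF8503 (205 to 176) and -0.22 with PF846 (188 to 162). SLC35B3, a Golgi carrier of the sulphate donor PAPS, was at -0.31 with PF8503 (196 to 159) and at -0.16 with PF846 (180 to 160). All 3 had lower means with compound than with vehicle in both tables.

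The first codons of SLC35B3 are given for contrast with SLC13A5, since a long hydrophilic stretch precedes its first hydrophobic segment at codons 78 to 96. The gene lies on the reverse strand at chr6:8411435-8435561.
SLC35B3: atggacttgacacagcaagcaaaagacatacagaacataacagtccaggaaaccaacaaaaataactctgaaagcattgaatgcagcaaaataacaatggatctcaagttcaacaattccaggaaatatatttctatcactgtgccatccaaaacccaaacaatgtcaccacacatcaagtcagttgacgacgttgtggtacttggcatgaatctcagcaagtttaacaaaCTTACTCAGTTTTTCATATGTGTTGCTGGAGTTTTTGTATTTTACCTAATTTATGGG

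The remaining low members rest on fewer counts or on a shorter region. SLC26A2, a sulphate transporter, had 85.8 normalized counts in vehicle and 69.7 with PF8503 (-0.30), and its value with PF846 was -0.038. SLC17A5, the lysosomal sialic acid exporter, had the lowest value of all members with PF846, at -0.49 (242 to 173), and a value of -0.041 with PF8503 (576 to 560). SLC35B4, a Golgi carrier of UDP-xylose and UDP-N-acetylglucosamine, was at -0.41 with PF8503 (86.7 to 65.1) and at 0.17 with PF846 (156 to 175).

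SLC17A5 and SLC35B4 were the members among the 163 in both tables for which the vehicle means departed from the constant factor, and 161 kept it. A departure was also found for 134 of all 8775 transcripts in both tables. The authors located, for each compound, the position where the cumulative normalized reads of treated and vehicle cells differed most, and counted only reads 3' of it wherever its Z score was at least 2. For these members another region was counted in each table. For SLC17A5 the region counted for PF846 held 46.0% of the vehicle reads of the region counted for PF8503. For SLC35B4 the region counted for PF8503 held 50.9% of those counted for PF846. In each case the low value stood in the table with the shorter region. That region was chosen by a difference between treated and vehicle reads, so a low value in it is not an independent observation. The part of this choice in both values was not tested. A region shortened alike in both tables would not be seen by this measure.

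The first codons of these carriers are shown because reads over a 5' part of their coding sequence were left out in one of the tables. In SLC35B4 (chr7:134289332-134316930, reverse strand) the first hydrophobic segment covers codons 7 to 25, and in SLC17A5 (chr6:73593379-73653992, reverse strand) codons 42 to 60. Capitals again mark the segment.
SLC35B4: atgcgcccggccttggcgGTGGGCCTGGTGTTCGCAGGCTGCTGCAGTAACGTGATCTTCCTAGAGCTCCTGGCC
SLC17A5: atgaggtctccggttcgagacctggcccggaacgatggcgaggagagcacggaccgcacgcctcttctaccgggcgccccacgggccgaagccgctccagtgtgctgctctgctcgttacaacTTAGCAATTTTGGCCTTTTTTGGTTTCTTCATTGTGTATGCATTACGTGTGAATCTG

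The highest value with PF8503 was that of SLC6A8, the creatine transporter, at 0.53 (74.8 to 108), with 0.21 for PF846 (68.5 to 79.2). SLC16A3, the monocarboxylate transporter that exports lactate from glycolytic cells, was at 0.33 with PF8503 (179 to 225) and 0.11 with PF846 (164 to 177). SLC51B, the small single-span subunit of the basolateral bile acid exporter, was at 0.32 with PF8503 (111 to 139) and at 0.29 with PF846 (102 to 125), the highest value with that compound. SLC22A23, an orphan member of the organic ion transporters, was at 0.30 (85.1 to 105) with PF8503 and at -0.024 with PF846. SLC25A36, a mitochondrial pyrimidine nucleotide carrier, was at 0.30 with PF8503 (53.9 to 66.5) and at 0.23 with PF846.

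All 5 of these means were below the median of members, which was 406 normalized counts for PF8503. With a mean of at least 100 normalized counts asked for, 2 of the 5 remained, namely SLC16A3 and SLC51B. Among the transcripts of the PF8503 table with a mean under 100, 6.59% were lower and 8.57% higher by the same threshold. Values at or past 0.3 were thus commoner at low counts. The share of like-level transcripts as high with PF8503 was 0.351% for SLC6A8, which was picked as the highest of the members. For SLC16A3 this share was 1.22%, for SLC51B 3.42%, for SLC22A23 5.36% and for SLC25A36 7.97%. SLC35A1, the Golgi carrier of CMP-sialic acid (208 to 254), and SLC40A1, the iron exporter ferroportin (106 to 128), were just under the threshold with PF8503, at 0.28 each. With PF846 their values were 0.036 and -0.0077. SLC44A2, a choline transporter-like protein, was at 0.29 (98.9 to 121) and was listed for PF8503 alone.

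**Figure D2:**
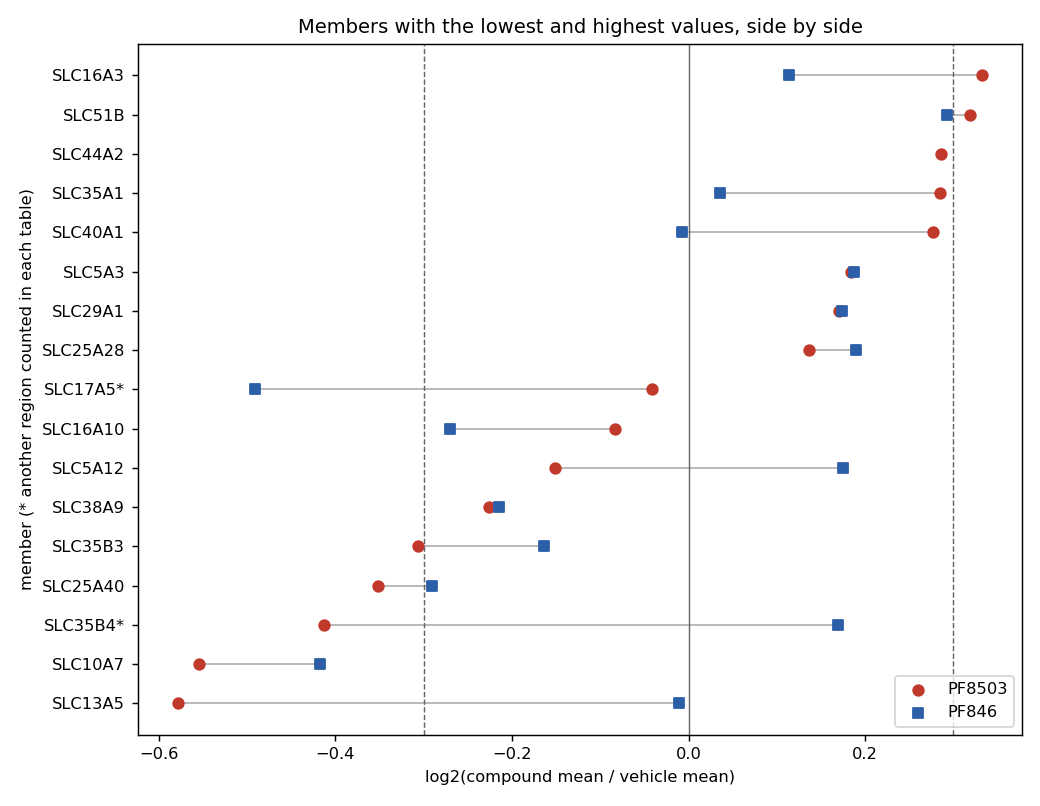
The log2 of compound over vehicle is shown for PF8503 (circles) and PF846 (squares) for the members with the lowest and highest values among those with a mean of at least 100 normalized counts, and for both members with another counted region, which carry an asterisk. SLC10A7, SLC25A40 and SLC38A9 lie to the left of 0 with both compounds, while SLC13A5 is low with PF8503 alone, at -0.58 against -0.011.

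Over all 171 members the values with PF8503 leaned slightly to the higher side. Their median was 0.052 against 0.013 for all transcripts, and 114 members (66.7%) were above 0, against 54.7% of all transcripts. With PF846 the median was 0.010 against 0.00086, and 86 of 163 members (52.8%) were above 0, against 50.3%. The lean was clearest in abundant members: of the 29 with a mean of at least 1000 normalized counts, 24 (82.8%) were above 0 with PF8503, against 55.1% of the 2175 transcripts at this level. With PF846 16 of the 29 were above 0 (55.2%), against 54.6%. The members held 1.28% of the summed means of the PF8503 table in vehicle and 1.34% with compound, and for PF846 these shares were 1.28% and 1.29%.

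Other membrane proteins showed a like shift. Transcripts with a TMEM symbol, named for having membrane spans, had a median of 0.066 with PF8503, and 72.6% of 113 were above 0. The 216 transcripts outside the SLC symbols with 6 or more hydrophobic segments had a median of 0.046, with 65.3% above 0, beside 0.045 and 65.8% for the 114 solute carriers with as many segments. Transcripts outside the SLC symbols with no such segment had a median of 0.0057, with 52.3% above 0. Within the members the values did not follow the number of segments found, since the 16 with none had a median of 0.080 with 13 above 0. Of these 16, 11 were SLC25 carriers, membrane proteins whose spans the measure missed. Subunits and assembly factors of the mitochondrial complex that oxidises NADH (NDUF symbols) lay on the other side, at a median of -0.023 over 42 transcripts. The shift was thus seen in other multi-span transcripts of these tables too, and it was not tested in any of these groups.

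The SLC25 carriers were set apart from the other members. With PF8503 the 30 SLC25 transcripts had a median of 0.080, and 25 (83.3%) were above 0. The 141 others had a median of 0.044, and 89 (63.1%) were above 0. With PF846 the medians were 0.012 over 29 and 0.0094 over 134, and 16 and 70 members were above 0. Both parts of the family thus had values in the same range, and the difference between their medians was 0.035 with PF8503 and 0.0024 with PF846. Only SLC25A40 was at or under -0.3 in the SLC25 family, and only SLC25A36 was at or over 0.3, both with PF8503. Each is 3.33% of the family in that table, against 2.98% (lower) and 2.12% (higher) of all transcripts.

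The sequences of both parts differed in length and in hydrophobic segments. The coding sequences of SLC25 members had 274 to 675 codons (median 316.5), and none of the 30 had 6 or more hydrophobic segments by this measure. It found none at all in 11 of them and a median of 1, although all lie in a membrane. The measure thus misses spans of SLC25 carriers, and its count is not their number of membrane spans. Those of the other members had 128 to 1259 codons (median 523), and 114 of 141 had 6 or more. The 5 members outside SLC25 with no hydrophobic segment were exactly the 5 whose products are not carriers. The mitochondrial carrier signature, a proline, any residue, an acidic residue, any pair of residues and a basic residue, stood at least 3 times in 19 of the 30 SLC25 sequences and in none of the 141 others. It stood as often in 3.17% of the 8978 other matched transcripts.

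The signature is shown in codons for SLC25A5, the member with the highest level, and for SLC25A40, the lowest in value of its family, because each carrier is built of repeats that hold a copy. Capitals mark the codons for proline, the acidic residue and the basic residue, and the first copy begins at codon 28 in SLC25A5 (chrX:119468422-119471396, forward strand) and at codon 35 in SLC25A40 (chr7:87833568-87876360, reverse strand).
SLC25A5 signature 1: CCCatcGAGcgggtcAAG
SLC25A5 signature 2: CCTcttGATtttgccCGT
SLC25A5 signature 3: CCAtttGACactgttCGC
SLC25A40 signature 1: CCCctgGATgttgttAAA
SLC25A40 signature 2: CCActaGAAttgattAGA
SLC25A40 signature 3: CCAtttGATgtagtaAAA
Both carriers held 3 copies, and their values with PF8503 were 0.043 and -0.35.

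Members were also grouped by the place of the first hydrophobic segment found. The measure can miss spans, so this segment need not be the first membrane span. Of the members, 60 had a segment beginning at residue 40 or earlier, and their median was 0.061 with PF8503, with 2 (3.33%) at or under -0.3. The 95 members with a later first segment had a median of 0.031, with 4 (4.21%) at or under -0.3. Among transcripts outside the SLC symbols, 61 of the 1017 with an early segment (5.998%) were at or under -0.3 with PF8503. Of the 1626 with a later one, 42 (2.58%) were, against 2.98% of all transcripts. Outside the SLC symbols the share was thus higher with an early segment, while among members it was slightly lower. The member counts are small, and the difference was not tested. Across the 171 members Spearman's rho between the value with PF8503 and the number of segments was -0.053, and with the number of codons -0.061. Over the 141 members outside SLC25 these coefficients had the other sign, at 0.066 and 0.065. With PF846 they were -0.027 and 0.081 over 163 members, and 0.015 and 0.173 over the 134 outside SLC25. For the position of the first segment the coefficient was -0.105 with PF8503 over the 155 members that had one, and -0.079 with PF846 over 147. These are descriptions across members, which share libraries, and carry no test.

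Levels in vehicle were compared per 100 counted codons, over the 169 members for which the counted region had not been seen to differ. The adenine nucleotide translocase SLC25A5 came first with 3793 normalized counts per 100 codons, followed by the phosphate carrier SLC25A3 with 3614. The zinc and manganese importer SLC39A14 came next with 1247, then the scaffold protein SLC9A3R1 with 962, and the other abundant translocase SLC25A6 had 899.8. The citrate exporter SLC25A1 had 785, the lactate transporter SLC16A1 784, the amino acid transporter SLC7A5 733, the zinc importer SLC39A1 612 and SLC3A2, the heavy chain of SLC7A5, 609. Neighbours in this order such as SLC25A1 and SLC16A1 cannot be ranked, since their spread over libraries is unknown. The median member had 83.3, and the lowest had 7.00. The translocases are near-identical paralogs, and the authors kept only reads with a single position, so their own levels are uncertain.

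**Figure D3:**
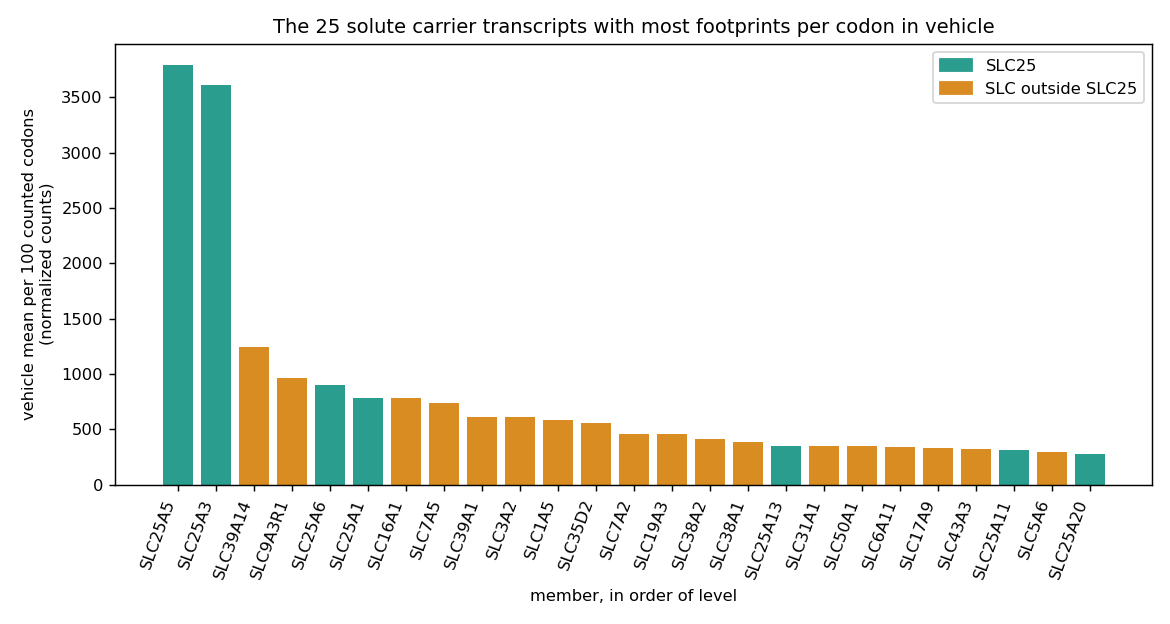
Bars give the vehicle mean per 100 counted codons, in normalized counts of the PF8503 table, for the 25 members with the highest level, with SLC25 members in green and the others in orange; no error can be drawn. SLC25A5 and SLC25A3 stand at 3793 and 3614, and the next member, SLC39A14, at 1247.

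SLC25A5, SLC25A3 and SLC39A14, the members with the highest levels, lay close to vehicle with both compounds, but not all abundant members did. SLC25A3 was at 0.047 with PF8503 (12323 to 12732) and at 0.011 with PF846 (11279 to 11366). SLC25A5 was at 0.043 with both, from 10544 to 10865 with PF8503 and from 9651 to 9944 with PF846. SLC39A14 was at 0.049 and 0.0057, and SLC16A1 at 0.022 and -0.023. These carriers gave no value beyond 0.05 on either side. SLC25A1 (0.16 and 0.028), SLC25A6 (0.099 and -0.0060) and SLC9A3R1 (0.15 and -0.0028) had larger values with PF8503 than with PF846. SLC25A13, the aspartate and glutamate carrier of liver mitochondria, was at -0.0040 and -0.026.

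The families of amino acid transporters and their heteromeric partners made up 30 members by symbol, of which SLC7A6OS is not a carrier. With PF8503 none was at or under -0.3, against 2.98% of all transcripts. Only SLC6A8 (3.33%) was at or over 0.3, against 2.12% of all transcripts. The median of the class was 0.047 with PF8503, and 0.0099 over 29 members with PF846, and without SLC7A6OS it was 0.044 and 0.013. The heterodimer that imports large neutral amino acids was above vehicle in both chains: SLC7A5 was at 0.13 with PF8503 (3569 to 3897) and 0.061 with PF846 (3267 to 3408), and SLC3A2 at 0.16 (3101 to 3453) and 0.12 (2838 to 3082). SLC1A5, the glutamine transporter, was at 0.16 and 0.059.

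The families numbered with the sugar transporters held 15 members for PF8503 and 14 for PF846. Past the threshold were 2.98% (lower) and 2.12% (higher) of all transcripts with PF8503, and 1.12% and 0.882% with PF846. None of the members of these families was past it. Their medians were -0.032 and -0.013, and without SLC2A4RG, which is not a carrier, -0.0087 and -0.040. SLC2A1, the widely expressed glucose transporter, was at 0.056 with PF8503 and -0.12 with PF846, and SLC2A2, the glucose transporter of liver, at -0.071 and -0.19. SLC5A3, the myo-inositol transporter, was at 0.18 (291 to 330) and 0.19 (266 to 303). SLC5A12, a lactate and monocarboxylate transporter numbered with the sugar carriers, was at -0.15 (158 to 142) with PF8503 and 0.18 (144 to 163) with PF846. SLC50A1, a Golgi sugar transporter with the highest level of the class, was at 0.15 and 0.014.

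The 10 members numbered with the transporters of monocarboxylates, citrate and fatty acids included both SLC13A5 and SLC16A3. They had a median of -0.010 with PF8503 and -0.0060 with PF846. SLC16A10, a carrier of aromatic amino acids, was at -0.083 with PF8503 (274 to 259) and at -0.27 with PF846 (251 to 208), where 1.51% of like-level transcripts were as low. The 19 carriers of nucleotide sugars and other donors of the endoplasmic reticulum and Golgi had a median of 0.027 with PF8503. Of them SLC35B3 and SLC35B4 (10.5%) were at or under -0.3, against 2.98% of all transcripts. With PF846 the median of these carriers was -0.029 over 18, with 6 above 0. SLC35D2, the carrier of this class with the highest level, was at 0.032 and -0.071.

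Metal and ion transporters were counted by class for values above 0, where 54.7% of all transcripts lay with PF8503 and 50.3% with PF846. These classes are small, and differences between them were not tested. The 20 members numbered with the carriers of sodium, protons, chloride, bicarbonate, sulphate and calcium had medians of 0.093 with PF8503 and 0.067 with PF846, and 16 and 14 of them were above 0. Without SLC4A1AP, SLC9A3R1 and SLC9A3R2 the medians were 0.083 and 0.071. The 6 transporters of other metals and phosphate were all above 0 with PF8503 (median 0.11), and of the 5 listed for PF846 none was above 0 (median -0.041). The values of this small class were modest, and SLC31A1, the copper importer with the highest level in it, was at 0.012 and -0.078. The zinc transporters, 16 for PF8503 and 15 for PF846, had medians of 0.015 and 0.027. None was past the threshold, against 2.98% (lower) and 2.12% (higher) of all transcripts with PF8503, and 1.12% and 0.882% with PF846. Of the zinc transporters, 8 (50%) were above 0 with PF8503 and 12 (80%) with PF846.

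The families numbered with the carriers of nucleosides and vitamins held 16 members for PF8503 and 15 for PF846, with medians of 0.067 and 0.012. They include carriers of other solutes, such as SLC17A5 (-0.041 and -0.49) and SLC44A2. SLC29A1, the equilibrative nucleoside transporter, was at 0.17 with both compounds, from 884 to 995 with PF8503 and from 809 to 913 with PF846, where 0.986% of like-level transcripts were as high. SLC19A3, a thiamine transporter, was at -0.042 and -0.14. The 8 members numbered with the carriers of bile acids, drugs and organic ions included SLC10A7, SLC51B and SLC22A23 and had medians of 0.029 and -0.024. SLC15A4, the lysosomal histidine and peptide transporter, stood alone in the last class, at 0.0028 and 0.14. SLC25A28, a mitochondrial iron importer, was at 0.14 with PF8503 (172 to 189) and 0.19 with PF846 (158 to 180).

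**Figure D4:**
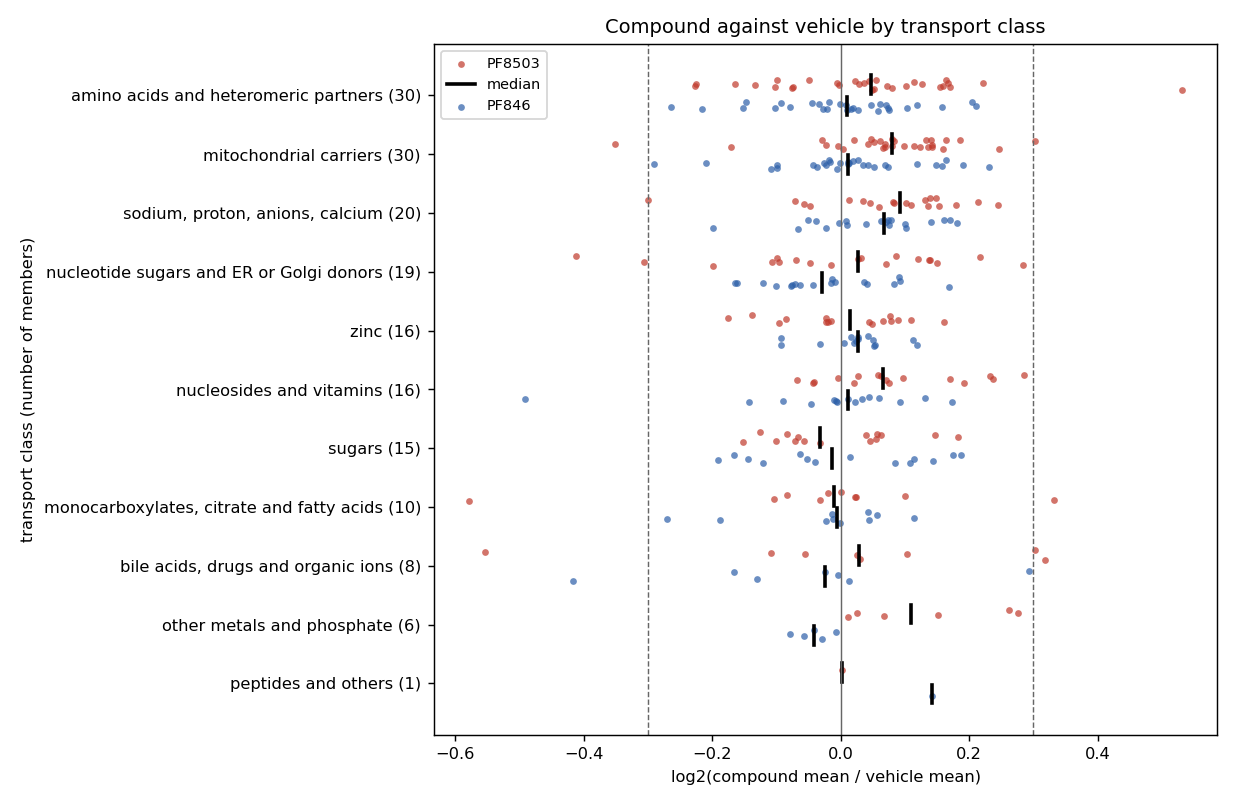
Each point is a member placed by its log2 of compound over vehicle (horizontal axis) in its transport class (rows, number of members in brackets), with PF8503 in red, PF846 in blue, black bars at the median and dashed lines at 0.3 on either side. With every member of a class counted, medians run from -0.032 (sugars) to 0.11 (other metals and phosphate) with PF8503, and single members rather than classes reach the dashed lines.

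The compounds were given at the same concentration for the same time, so their values can be set side by side for the 163 members in both tables. Both comparisons share the vehicle libraries, and no test or interval of the difference can be had from means. The value with PF8503 minus that with PF846 had a median of 0.044 over members, against 0.011 over all 8775 transcripts, and was above 0 in 105 members (64.4%, against 53.9%). At or under -0.3 were 3 members (1.84%), against 2.53% of all transcripts, namely SLC35B4 (-0.58), SLC13A5 (-0.57) and SLC5A12 (-0.33). At or over 0.3 were 4 members (2.45%), against 1.70% of all, namely SLC17A5 (0.45), SLC25A42 (0.33), SLC22A23 (0.33) and SLC6A8 (0.32). SLC25A42 is a mitochondrial coenzyme A carrier, with 0.12 for PF8503 and -0.21 for PF846. These shares again lay near those of all transcripts, and for SLC35B4 and SLC17A5 the counted regions differed as well.

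Genes related to the solute carriers were read from a fixed list, 43 of which were listed for PF8503. Most of these are other transporters or carrier-like proteins, and the rest are mitochondrial import components and chaperones. None was at or under -0.3 with PF8503, against 2.98% of all transcripts. At or over 0.3 were 2 (4.65%), against 2.12% of all, namely UCP2 at 0.34 and SLCO1A2 at 0.36, both with a mean under 100. The median of the 43 was 0.053. With PF846 none of 40 was past the threshold, against 1.12% (lower) and 0.882% (higher) of all transcripts, and the median of the 40 was -0.0027. Of the 6 import components listed, TIMM9, a chaperone of carriers in the intermembrane space, was at -0.23 with PF8503 (277 to 236) and 0.015 with PF846, while TOMM40, the channel of the outer membrane, was at 0.14 and 0.069. BSG, the chaperone that carries SLC16A1 and SLC16A3 to the cell surface, was at 0.098 with PF8503 (12128 to 12977) and -0.018 with PF846. The genes of this list lay within the range of the members with either compound.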

How the data were processed

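Footprint libraries of Huh-7 cells (3 per condition) were grouped by the labels. The authors aligned reads to the canonical UCSC transcripts of GENCODE 24 (GRCh38) with Bowtie, kept reads with a single position, counted them 3' of the position where cumulative normalized reads of treated and vehicle cells differed most if its Z score reached 2 or else without the first 10 codons, left out the last 10 codons, kept transcripts with more than 30 counts and divided by DESeq size factors. Versions of Bowtie and DESeq are not given in the sources used here. The study's analysis script numbers the replicates otherwise than the labels do, so which libraries entered the means is not certain.

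The deposited signal columns hold the authors' means per condition of these normalized counts, and they are the only values used. The deposited ratio column is the authors' fold change, the deposited log2 column is its log2, and the deposited p-value columns come from the authors' negative binomial test. These 3 kinds of column were not used. No test was run here, as the means alone give no spread between libraries.

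Members and lists were chosen with earlier results of these data known. Named were, for each compound, the 5 lowest and 5 highest members with a mean of at least 100, those past 0.3 at that mean, the 10 highest in level per codon, the highest of each class and those with another counted region (vehicle ratio off its constant by over 0.002 on the log2 scale). Named after their values were seen were SLC6A8, SLC22A23, SLC25A36, SLC26A2, SLC25A42, SLC2A1, SLC2A2, SLC1A5 and SLC25A13, as were the sequences printed. Transport classes follow the family number.

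Sequence features come from translated canonical coding sequences of GENCODE 44 (GRCh38) in place of the planned RefSeq proteins. Of 9221 symbols 99.2% matched, including all 171 members, 2 by synonym. The authors' transcript may differ. Levels divide the vehicle mean by the codons left after 10 at each end. The calls and the check of the counted region were tested on simulated means, with planted changes larger than the value of any member. Changes near the threshold were not simulated. Alternatives were thresholds of 0.2 and 0.5, a mean of at least 100, 10 added to each mean, centring on the median of all transcripts, and members with the same counted region only. Leaving out members that are not carriers was added after the data were seen. Computations ran in Python 3.11.15 with biopython 1.88, pandas 2.3.3, numpy 2.4.6, scipy 1.17.1 and matplotlib 3.10.9.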

Additional observations from a re-analysis of the deposited data

How the results depend on the processing

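No paired analysis was possible because the deposited tables hold means per condition and no single library, and for the same reason no library could be left out. At a threshold of 0.2 on the log2 scale, 8 members were lower with PF8503 (4.68%, against 6.33% of all transcripts) and 16 higher (9.36%, against 6.57%), and with PF846 7 were lower (4.29%, against 3.64%) and 4 higher (2.45%, against 3.27%). At 0.5, 2 were lower (1.17%, against 1.08%) and 1 higher (0.585%, against 0.24%) with PF8503, and 0 were lower with PF846 (against 0.396%). With PF8503, 2 of 148 members were higher with a mean of at least 100. With 10 added to each mean 2 of 171 were higher, and after centring on the median of all transcripts 3 of 171. The counts of lower members in these settings were 4, 4 and 6. With the same counted region only, 1 of 161 members was lower with PF846. Shares of all transcripts in these settings are not given here, so these counts cannot be set beside them. Over the alternatives that change them, the median of members ran from 0.040 to 0.051 with PF8503 and from 0.0092 to 0.011 with PF846, SLC25 minus the others from 0.033 to 0.038 and from 0.0015 to 0.0036, and the median difference between compounds from 0.032 to 0.044. Low counts limit members under 100 normalized counts most, and depth per library is unknown.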
